A study of Mus musculus with 6 samples.

Results

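Eomes, Tbx21, Id2, Ets1, Nfil3, Tox, Zeb2, Prdm1 and Runx3 encode transcription factors on which natural killer (NK) cells depend for their development, identity or maturation. These 9 genes were chosen by symbol, and all 9 had probes on the array, 18 of its 45988 probes, among 17626 named genes. They were compared between NK cells with and without CD117, which is the growth factor receptor that Kit encodes. Cells came from spleens of female C57Bl/6 mice aged 7 weeks, with no treatment or altered allele given in the labels. They were enriched by magnetic separation as CD3-negative and NK1.1-positive cells. They were then sorted into a Kit+ group with CD117 on the surface and a Kit- group without it, with 3 samples in each group from sorts done 3 times. The titles number the samples 1 to 3 in each group, and the labels do not say how many mice went into a sort. A separate Illumina bead array was used for each of the 6 samples, so each value is a mean over all cells of a sort, in which fewer expressing cells and less RNA per cell cannot be told apart.

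NK cells arise from lymphoid progenitors that express Id2, an inhibitor that binds E proteins and keeps them off DNA, and Nfil3, a basic leucine zipper factor needed early in the lineage. Ets1 and Tox also act early, while the T-box factors Eomes and Tbx21 (T-bet) set the identity of conventional NK cells and carry them through maturation. Zeb2, a zinc finger repressor, acts with Tbx21 in terminal maturation, Prdm1 (Blimp-1) acts in late maturation, and Runx3 supports survival and the expression of NK receptors. These roles are known mainly from mice that lack each gene.

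The promoters of Eomes, Tbx21 and Id2 are shown because these members were lower in Kit+ within each of the 3 title numbers and above the background level on all arrays. Each line gives the 250 bases before the annotated transcription start, 5′ to 3′ on the strand of the gene, from RefSeq on GRCm38.p6.
Eomes, chr9:118477939-118478188, strand plus: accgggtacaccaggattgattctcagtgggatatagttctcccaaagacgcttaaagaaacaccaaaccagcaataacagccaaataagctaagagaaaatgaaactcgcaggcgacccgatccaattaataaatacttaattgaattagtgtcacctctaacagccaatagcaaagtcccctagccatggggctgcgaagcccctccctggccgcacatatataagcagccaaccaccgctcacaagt
Tbx21, chr11:97115332-97115581, strand minus: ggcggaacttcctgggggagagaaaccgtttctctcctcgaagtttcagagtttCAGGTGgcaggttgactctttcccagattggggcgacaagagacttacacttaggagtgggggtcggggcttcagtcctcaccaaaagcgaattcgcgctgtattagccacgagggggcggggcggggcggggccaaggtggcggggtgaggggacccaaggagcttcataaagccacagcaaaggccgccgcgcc
Id2, chr12:25096093-25096342, strand minus: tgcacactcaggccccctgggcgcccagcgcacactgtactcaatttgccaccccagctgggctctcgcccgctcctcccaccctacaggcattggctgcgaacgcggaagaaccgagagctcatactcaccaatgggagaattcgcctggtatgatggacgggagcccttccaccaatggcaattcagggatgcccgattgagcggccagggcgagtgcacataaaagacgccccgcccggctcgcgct
Capitals mark a match, on either strand, to any of 6 short motifs: GTGTGA for T-box factors, CCGGAAG for Ets factors, TGTGGT for Runx factors, CACCTG for Zeb factors, TTANNTAA for Nfil3 and GAAAGT for Prdm1. No searched motif overlapped another in these 3 windows. The window of Tbx21 held 1 match, to CACCTG read on the opposite strand, a sequence found in 17.2% of 32851 promoter windows of this length. The windows of Eomes and Id2 held none of these letters. The other shares were 12.3% for GTGTGA, 6.91% for CCGGAAG, 14% for TGTGGT, 5.43% for TTANNTAA and 12.3% for GAAAGT. Windows were at hand for 7 of the 9 members, 11 windows in all. A window of Runx3 held 2 to TGTGGT and 1 to CACCTG, that of Prdm1 held 1 to CACCTG, and 2 overlapping windows of Zeb2 held 1 each to GAAAGT.

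The median raw intensity of the 6 arrays lay between 68.9 and 130, and the 99th percentile between 1030 and 6370. Values below are log2 intensities after background correction and quantile normalization. The background level was read from probes of olfactory and vomeronasal receptors, as their 95th percentile. It was 6.58 to 7.23 across arrays, and 15.1% (Kit- 2) to 29.8% (Kit- 1) of probes were above it. Kit itself was the basis of the sort and only checks the labels. It read 7.73, 8.79 and 8.50 in Kit- samples 1 to 3, and 10.68, 12.09 and 10.76 in Kit+ samples 1 to 3. Of 15 tested NK cell markers, 11 were above background on all 6 arrays, among them Klrb1c, which encodes NK1.1. Cd3e and Cd3d, whose protein was absent from the surface by the sort, were also above background on all 6 arrays, as were Cd3g, Cd8b1 and Lat, while Cd4, Cd8a, Cd5 and Themis were on none.

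Of the 9 factors, Eomes fell in Kit+ cells, and none rose (limma without a block, Benjamini-Hochberg adjusted p under 0.05 over 11743 genes). Over all genes, 0.724% were lower and 0.528% higher at that threshold. When the title number was kept as a block, because samples of the same number deviated together, Eomes, Tbx21 and Ets1 fell and none rose, against 4.39% of all genes lower and 3.86% higher. The median fitted log2 fold of the 9 was -0.53, or -0.67 without Runx3, which was not above background on any array, and that of all tested genes was 0.03. Within each of the 3 numbers, Eomes, Tbx21, Id2, Ets1 and Prdm1 were lower in Kit+, as 17.4% of all genes were. For the first 4 of these the groups did not overlap, as was so, with Kit+ lower, for 7.9% of all genes.

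**Figure D1:**
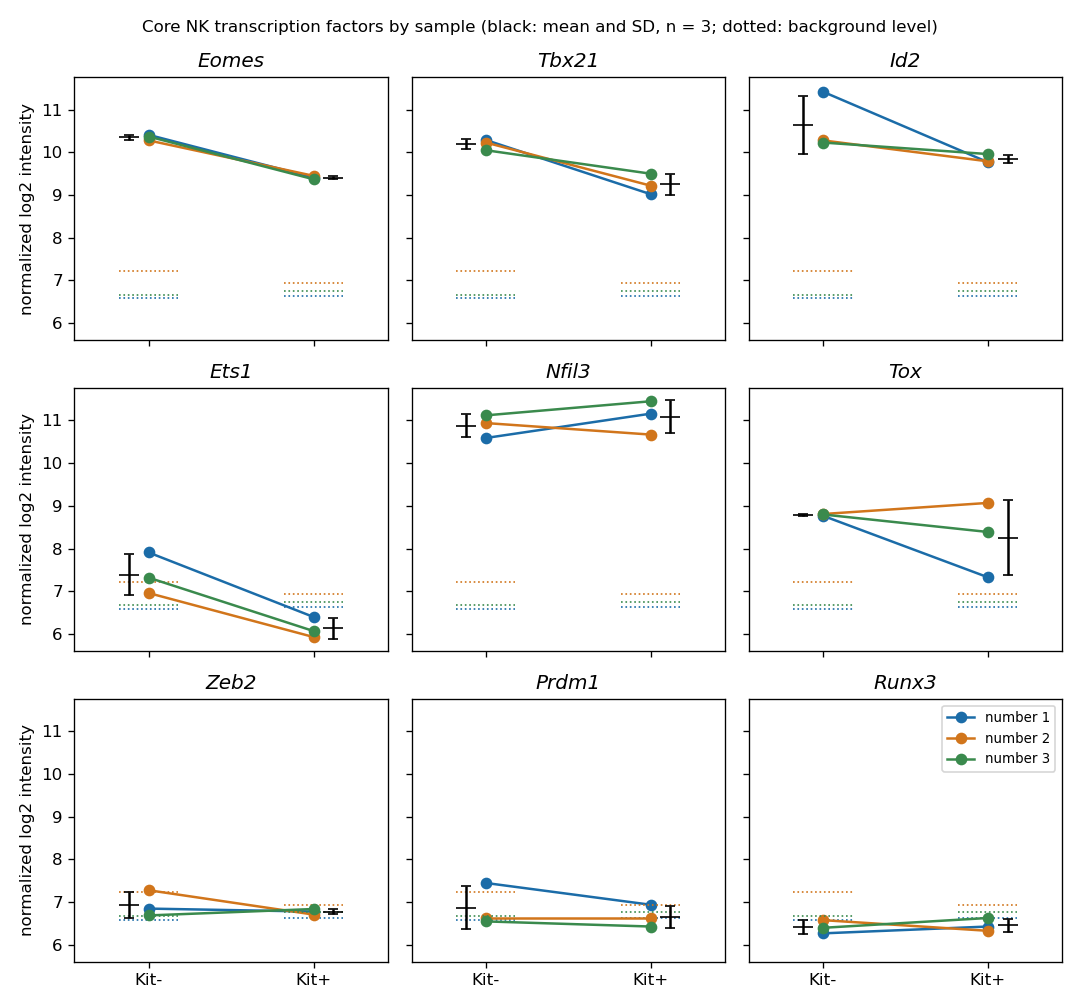
Normalized log2 intensity of the brightest probe of each factor (vertical axis) in Kit- and Kit+ samples, with lines joining samples of the same title number, black marks for the mean and SD of 3 samples, and dotted marks for the background level of each array. Eomes moved from between 10.28 and 10.41 in Kit- to between 9.37 and 9.45 in Kit+, while Runx3 stayed below the background level on all 6 arrays.

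Eomes directs the development of conventional NK cells and their receptor repertoire. Its brightest probe read 10.41, 10.28 and 10.37 in Kit- samples 1 to 3, and 9.41, 9.45 and 9.37 in Kit+ samples 1 to 3. All 3 Kit- samples stood above all 3 Kit+ samples, by far more than either group's spread. The mean went from 10.35 ± 0.06 to 9.41 ± 0.04 (SD, n = 3 each), a 1.93-fold fall (log2 fold -0.95, SE 0.16, 95% confidence interval -1.33 to -0.57, limma adjusted p = 0.0445, blocked 0.0112). Its pooled SD within groups, 0.053, was smaller than that of all but 0.3% of tested genes. With a single sample left out the log2 fold lay between -0.98 and -0.92, and the limma adjusted p between 0.0932 and 0.162. In blocked fits without number 1, 2 or 3 the limma adjusted p of Eomes was 0.0128, 0.0685 and 0.0239. With each array centred on its median in place of quantile normalization, the log2 fold was -0.89 (limma adjusted p = 0.999, blocked 0.194).

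Eomes was also lower in Kit+ within all 3 numbers before normalization and in the authors' normalized values. In the authors' deposited value table, its log2 intensity differed by -1.04, -0.87 and -1.04 (Kit+ minus Kit-) within numbers 1, 2 and 3. On the raw scale it read 3756, 580.2 and 1168 in Kit- samples 1 to 3, and 1488, 466.2 and 461.3 in Kit+ samples 1 to 3. Raw intensities of different numbers overlapped between the groups, and within numbers the raw log2 differences were -1.34, -0.32 and -1.34. The median of all genes was -0.14 on that unnormalized scale, where the blocked limma adjusted p of Eomes was 0.0341. Raw array medians in Kit- and Kit+ were 130 and 84.4 in number 1, 99.4 and 99.9 in number 2, and 68.9 and 74.1 in number 3. The raw difference in number 1 thus includes a dimmer Kit+ array.

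Eomes had 2 other probes. The probe on a cDNA clone, above background on all 6 arrays, differed by -0.29, -1.01 and -0.31 within numbers 1, 2 and 3 (log2 fold -0.54, SE 0.34; over all kept probes, limma adjusted p = 0.7 and 0.16 with the block). A second probe on the RefSeq transcript, above background on 3 of 6 arrays, differed by -1.03, -0.24 and -0.33. All 3 probes were thus lower in the Kit+ sample of every number, by a size that varied between probes and between numbers. With the mean of the 3 probes, the log2 fold of Eomes was -0.67 (SE 0.20, limma adjusted p = 0.188).

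Tbx21 encodes T-bet, which supports late maturation, exit from the bone marrow and interferon-gamma production. Its single probe read 10.29, 10.23 and 10.05 in Kit- samples 1 to 3, and 9.02, 9.22 and 9.50 in Kit+ samples 1 to 3. The groups did not overlap, and the differences within numbers were -1.27, -1.0 and -0.55. The mean went from 10.19 ± 0.12 to 9.25 ± 0.24 (SD, n = 3 each), a log2 fold of -0.94 (SE 0.20, 95% confidence interval -1.40 to -0.49). This missed the threshold without the block (limma adjusted p = 0.0745) and passed it with the block (adjusted p = 0.0196). With the block it also passed on the authors' deposited value table (0.0273) and on raw intensity (0.0326), but not on median-centred arrays (0.157). In blocked fits without number 1, 2 or 3 the limma adjusted p of Tbx21 was 0.0508, 0.133 and 0.00514. Its raw intensity went from 3392, 563.9 and 938.3 in Kit- to 1092, 407.9 and 501.1 in Kit+ of numbers 1, 2 and 3. The Kit+ array of number 1 was also dimmer in its raw median. The brightest Eomes probe and the Tbx21 probe differed between groups by a similar amount, 1.93-fold and 1.92-fold. With the mean of its 3 probes Eomes had a smaller log2 fold, -0.67.

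Id2 restrains E proteins and is needed to make mature NK cells. Its probe on the RefSeq transcript read 11.42, 10.28 and 10.23 in Kit- samples 1 to 3, and 9.77, 9.79 and 9.96 in Kit+ samples 1 to 3. The groups did not overlap, but most of the difference came from Kit- 1: within numbers it was -1.65, -0.49 and -0.27. Over the groups this gave -0.81 on the log2 scale with an SE of 0.32, and -0.42 without Kit- 1. It did not pass (limma adjusted p = 0.333, and 0.0984 with the block). A second Id2 probe, on a cDNA clone, showed the largest difference of all 18 probes. It read 10.02, 11.27 and 11.63 in Kit- samples 1 to 3, and 7.85, 8.17 and 9.63 in Kit+ samples 1 to 3. All Kit- values again lay above all Kit+ values, and the differences within numbers were -2.17, -3.10 and -2.00. The log2 fold of this probe was -2.42 with an SE of 0.56. Over all 22994 kept probes its limma adjusted p was 0.112, and 0.00144 with the block, where 0.809% of kept probes were lower without the block and 3.58% with it. With the mean of both probes the log2 fold of Id2 was -1.61 (SE 0.26, limma adjusted p = 0.0421), so its call turned on how its probes were summarised. Why the probes differ in size was not tested.

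**Figure D2:**
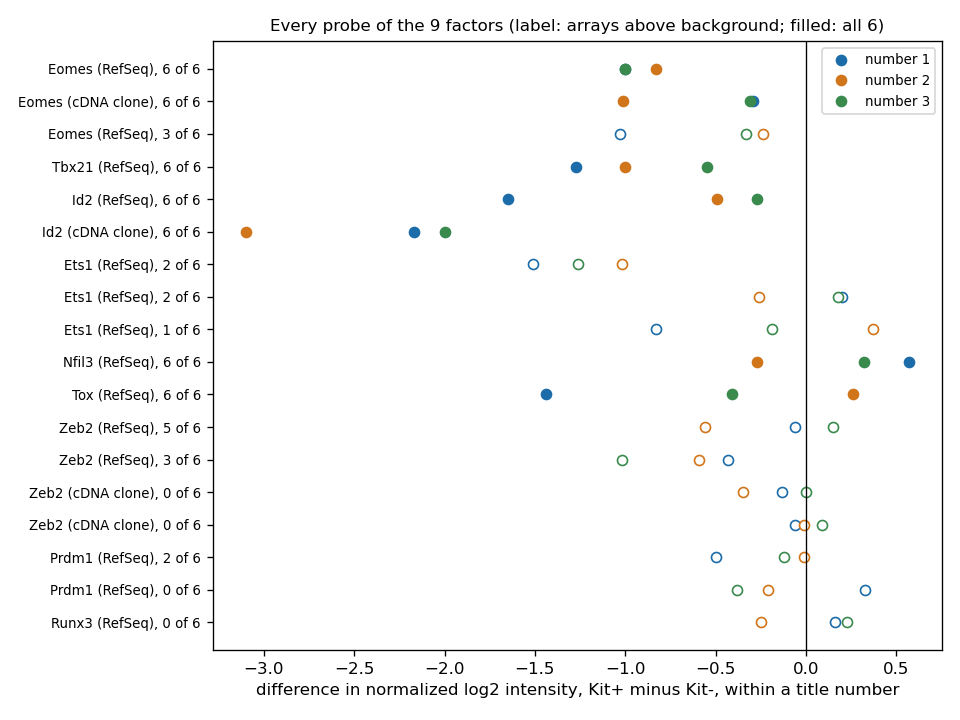
Difference in normalized log2 intensity, Kit+ minus Kit-, within each title number (horizontal axis) for all 18 probes of the 9 factors. Labels give the kind of sequence behind the probe and the number of arrays above background, filled points mark probes above background on all 6 arrays, and for the first Eomes probe the points of numbers 1 and 3 coincide at -1.0. The cDNA clone probe of Id2 stands furthest from 0, at -2.00 to -3.10.

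Ets1, a winged helix-turn-helix factor that acts early in the lineage, had 3 probes. Its brightest probe read 7.91, 6.96 and 7.32 in Kit- samples 1 to 3, and 6.40, 5.93 and 6.07 in Kit+ samples 1 to 3. The groups did not overlap, but the level was low: 2 of 3 Kit- arrays and no Kit+ array were above background. The mean of Kit- was therefore also set against the background levels of the Kit+ arrays, which gave 1.53-fold lower in Kit+. This value carries no interval, and its Kit- mean includes Kit- 2, itself below background. The measured means were 7.39 ± 0.48 and 6.13 ± 0.24 (SD, n = 3 each), with limma adjusted p = 0.0818 and 0.00433 with the block. Its other probes, both on the same RefSeq transcript, had log2 folds of 0.04 and -0.22 and were above background on 2 and 1 of 6 arrays. In Kit+ their means were 6.70 and 6.30, above the 6.13 of the first probe. The choice of the brightest probe thus rested on Kit- values and favoured the probe with the fall. Averaged over all 3 probes, Ets1 had a log2 fold of -0.48 (adjusted p = 0.242 in limma).

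Nfil3, which acts upstream of Eomes and Id2 in early NK cells, read 10.59, 10.94 and 11.12 in Kit- samples 1 to 3, and 11.16, 10.67 and 11.45 in Kit+ samples 1 to 3. The groups overlapped, and Nfil3 was higher in Kit+ for numbers 1 and 3 and lower for number 2. The log2 fold was 0.21, with an SE of 0.25 and a 95% confidence interval of -0.38 to 0.80, which holds changes up to 1.74-fold higher (limma adjusted p = 0.892, and 0.655 with the block). Tox, an HMG-box factor of early NK development, read 8.77, 8.81 and 8.80 in Kit- samples 1 to 3, and 7.33, 9.07 and 8.39 in Kit+ samples 1 to 3. The Kit- samples were nearly equal while the Kit+ samples spread around them, at 8.79 ± 0.02 and 8.26 ± 0.88 (SD, n = 3 each). On the log2 scale Tox differed by -0.53 with an SE of 0.40, and by -0.06 without Kit+ 1 (limma adjusted p = 0.718, and 0.336 with the block).

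The late-acting factors Zeb2, Prdm1 and Runx3 were near the background level, which limits what the array can show of them. The brightest Zeb2 probe read 6.85, 7.28 and 6.69 in Kit- samples 1 to 3, and 6.78, 6.71 and 6.84 in Kit+ samples 1 to 3. It was above background on 5 of 6 arrays, and the groups overlapped (log2 fold -0.16, SE 0.21, limma adjusted p = 0.9). A second RefSeq probe of Zeb2, above background on 3 of 6 arrays, read 7.17, 6.72 and 7.48 in Kit- and 6.75, 6.13 and 6.46 in Kit+. It was lower in Kit+ for each number, by -0.68 on the log2 scale with an SE of 0.25 (over all kept probes, limma adjusted p = 0.326 and 0.063 with the block). The 2 cDNA clone probes of Zeb2 were below background on all arrays. Prdm1 was above background on the number 1 arrays only, at 7.45 in Kit- and 6.94 in Kit+, and differed by -0.21 on the log2 scale with an SE of 0.28 (adjusted p = 0.912 in limma). Its second probe was not above background on any array. Runx3 had 1 probe, between 6.27 and 6.63, that was not above background on any array, so no fold is given.

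Ordered by probe brightness over the 6 arrays, Nfil3 came first at a mean of 10.99, followed by Id2 at 10.24, Eomes at 9.88, Tbx21 at 9.72 and Tox at 8.53. Zeb2 at 6.86, Prdm1 at 6.77, Ets1 at 6.76 and Runx3 at 6.44 followed. This is an order of probes and not of transcripts, since probes differ in how well they bind, and the sample ranges of all neighbours but Tox and Zeb2 overlapped. Of all tested genes, 2.9% had a lower log2 fold than Eomes or Tbx21, and 4.1% than Id2.

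**Figure D3:**
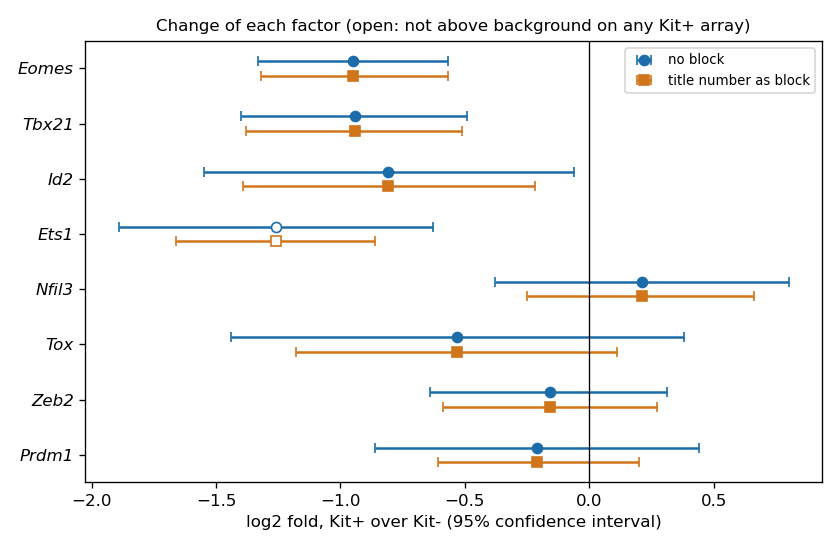
Log2 fold of Kit+ over Kit- with its 95% confidence interval (horizontal axis) for the brightest probe of 8 factors, without a block (circles) and with the title number as a block (squares). Runx3 is not drawn, and open symbols mark Ets1, whose 3 Kit+ values were all below the background level. The intervals of Ets1, Eomes, Tbx21 and Id2 lie below 0 in both fits, before adjustment over all genes, and the block narrows that of Ets1 from -1.89 to -0.63 without it to -1.66 to -0.86 with it.

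The genes whose 6 values ran most like those of Eomes were found by the root mean square difference of log2 values after each gene was centred on its mean, among 3967 other genes above background on all 6 arrays. They were S1pr2, a sphingosine-1-phosphate receptor (0.054), the protein kinase C isoform Prkch (0.099), Niban2 (0.125), the kinase Sbk1 (0.136) and the acetyl-CoA synthetase Acss2 (0.137). S1pr2 went from 9.37, 9.21 and 9.30 in Kit- to 8.31, 8.43 and 8.44 in Kit+ of numbers 1, 2 and 3. For Tbx21 they were the elongation factor Supt5 (0.092), the prolyl hydroxylase Egln2 (0.100), the RNA-binding protein Pcbp4 (0.104), the galactosyltransferase B4galt1 (0.107) and Impdh1, an enzyme of guanine nucleotide synthesis (0.113). By the same measure Eomes and Tbx21 differed from each other by 0.173, and Eomes and Ets1 by 0.324. These likenesses describe 6 arrays that share the group difference and carry no test.

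Genes described as lower in NK cells of mice that lack Tbx21, Eomes or Zeb2 were taken as a list, drawn up with results of these data known, so that its direction is not independent evidence. Of its 14 tested genes, 3 fell and none rose without the block, and 5 fell and none rose with it. Over all genes, 0.724% were lower and 0.528% higher without the block, and 4.39% and 3.86% with it. The median log2 fold was -0.73, against 0.03 over all genes, and 13 of the 14 lay below 0. Klrg1, an inhibitory lectin receptor of terminally mature NK cells, read 10.70, 10.56 and 10.29 in Kit- and 8.13, 8.03 and 8.05 in Kit+ of numbers 1, 2 and 3. The difference was -2.45 on the log2 scale, with an SE of 0.18 (adjusted p = 0.00553 in limma), a larger difference on this scale than that of either T-box factor. Prf1, which encodes perforin, differed by -3.18 (SE 0.25, adjusted p = 0.00553), with 1 Kit+ array below background. S1pr5, a receptor for exit into blood, differed by -1.98 (SE 0.35, adjusted p = 0.0469). The receptor genes Klra4 and Klra1 fell with the block alone (log2 fold -2.26 and -1.85, blocked adjusted p = 0.00433 and 0.000946), and these belong to a family of near-identical copies that probes may not tell apart. Spn (CD43) differed by -1.08 with an SE of 0.31, which did not pass (limma adjusted p = 0.176, and 0.0576 with the block). Without Kit+ 3, none of these genes passed in the fit without a block, and without any other single sample 2 did. Gzmb was too dim to be tested. The tested macrophage and monocyte markers, some of them kept through their Kit+ level, had a median log2 fold of 1.18 in the same samples.

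Among 39 tested transcription factors of NK and innate lymphoid cells other than the 9, none passed without the block. Of the 39, 12 had an unadjusted limma p under 0.05, as had 1537 of all 11743 genes. With the block 3 rose and 5 fell, where 3.86% of all genes were higher and 4.39% lower. The median log2 fold of the 39 was -0.03, against 0.03 over all genes. The E protein Tcf3, a partner that Id proteins sequester, fell with the block (log2 fold -1.03, SE 0.25, adjusted p = 0.121, blocked 0.0318), and read 8.73, 8.14 and 7.95 in Kit- and 6.99, 7.47 and 7.29 in Kit+ of numbers 1, 2 and 3. Tcf4, another E protein, differed by 0.64 with an SE of 0.22, which did not pass (limma adjusted p = 0.252, and 0.0565 with the block). Id3, the relative of Id2, rose with the block (log2 fold 0.74, SE 0.27, adjusted p = 0.28, blocked 0.0291), where both Id2 probes were lower. None of the 39 passed with the block on median-centred arrays. Batf, Stat3, Klf6 and Irf8 fell with the block (log2 fold -1.02, -0.79, -0.95 and -0.91, blocked adjusted p = 0.0478, 0.0498, 0.0221 and 0.0167). Batf is an AP-1 factor, above background on 1 Kit+ array, Stat3 carries cytokine signals, Klf6 is a zinc finger factor, and Irf8 also marks dendritic cells. Ets2 and Myb rose with the block (log2 fold 0.72 and 1.07, blocked adjusted p = 0.0322 and 0.0363), and Myb is also a progenitor marker, above background on 1 Kit- array.

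**Figure D4:**
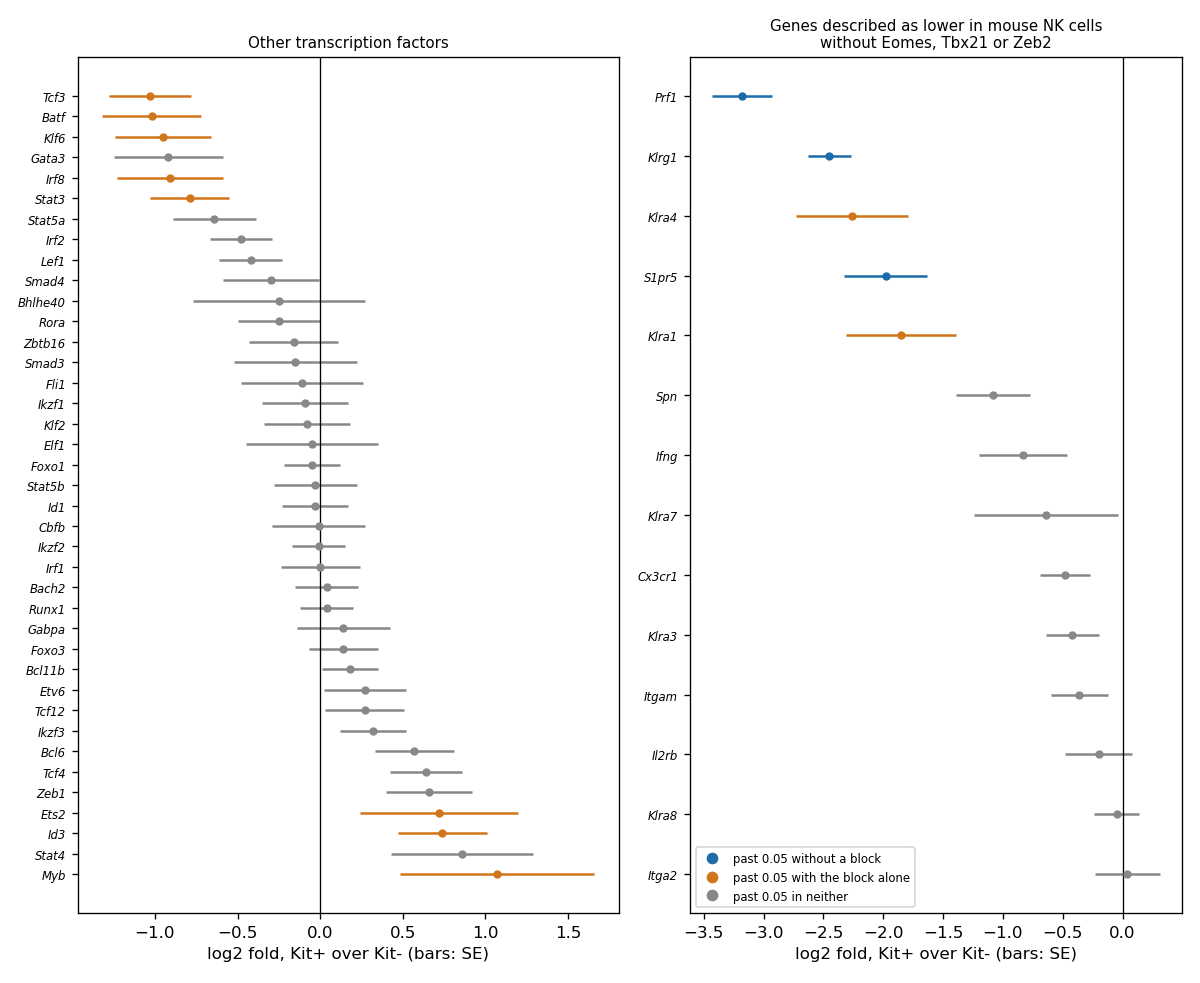
Log2 fold of Kit+ over Kit- with its SE (horizontal axis) for 39 other transcription factors (left) and 14 genes described as lower in mouse NK cells without Eomes, Tbx21 or Zeb2 (right), with colour for the fit in which the adjusted p was under 0.05. On the right 13 of 14 genes lie below 0, while on the left genes lie on both sides, 15 above 0 and 24 below.

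Markers of other cells moved with the groups, and some of these cells also express Id2, Zeb2 or Prdm1. Of 13 tested macrophage and monocyte markers, 5 rose and none fell without the block, and 8 rose and none fell with it. Their median log2 fold was 1.18, against 0.03 over all genes. The filter took the mean of both groups, so markers dim in Kit- could be kept through a high Kit+ level. Of the 13, 3 were not above background on any Kit- array, among them Apoe (6.05 in Kit- and 7.23 in Kit+), whose log2 fold is the median. Markers dim in both groups were not tested and are left out of it. Of all tested genes, 0.528% were higher and 0.724% lower without the block, and 3.86% and 4.39% with it. With the block 5 markers of dendritic cells and MHC class II rose and 1 fell, and 4 neutrophil, 4 progenitor, 2 T cell and 1 B cell markers rose and none fell. Mpo is counted in both the neutrophil and the progenitor list. The T cell marker Cd3e was lower in Kit+ in all 3 numbers but did not pass (log2 fold -0.81, blocked limma adjusted p = 0.0976). The summed normalized intensity of the macrophage and monocyte markers was 1220 to 1410 in Kit- samples and 3620 to 4280 in Kit+ samples. Slc40a1, Vcam1, Adgre1, Mpeg1 and Axl rose without the block, while Cd14, Spic, Fcgr1 and Cd163 were not above background on any array. The sum over 10 neutrophil markers was 925 to 1100 in Kit- and 1350 to 3060 in Kit+, and over 13 dendritic cell and MHC class II markers 5740 to 9190 and 6540 to 14200. For 10 progenitor markers it was 965 to 1070 and 1320 to 2080. Among these Lmo2, Mpo, Tal1 and Myb rose with the block, while Cd34, too dim to be tested, was not above background on any array. T cell markers (10 genes) summed to 3210 to 3850 and 4320 to 5760, and B cell markers (8 genes) to 675 to 1000 and 815 to 1850. No neutrophil, progenitor or B cell marker and 1 macrophage and monocyte marker was above background on all 6 arrays. On all Kit- arrays 4, 4, 3 and 3 of these were at background, so the Kit- sums of these 4 lists lie near the background level. NK cell markers summed to 51700 to 55900 in Kit- and 42100 to 49500 in Kit+, and the median log2 fold of the 15 tested genes was -0.14. Among them Eomes and Prf1 fell without the block, and with the block Klrc1 (log2 fold -1.25, blocked adjusted p = 0.00395) and Nkg7 (-0.83, 0.045) fell as well and none rose; 7 of the 15 lay above 0 and 8 below. The part of other cells in the differences of Eomes, Tbx21, Id2 and Ets1 was not tested. Of 7 tested markers of helper innate lymphoid cells, Il7r rose (log2 fold 2.34, limma adjusted p = 0.0356) and none fell.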

How the data were processed

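Per the file headers, each deposited array table gives the raw intensity of 45988 probes, which is linear, without detection p-values. BeadStudio 3.1.1.0 was used, per the submitters' processing notes. The authors' deposited value table also holds linear intensity. It equalled a quantile normalization of the raw values with no background correction to within 0.000223 of a value, with every column median at 92.78, and served as an alternative. Background was corrected by normexp (limma, offset 50), followed by log2 transformation and quantile normalization. Probes whose mean lay above the median of all probes were kept (22994, of them 16 of the 18 member probes), and each of 11743 genes was represented by its brightest kept probe. Probe names follow the platform annotation in GEO, some of it dated, with symbols updated by gene ID against RefSeq (GRCm38.p6): 29457 probes had 1 symbol, 11 several and 16520 none, and 29399 matched.

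The comparison used limma 3.58.1 (R 4.3.3), with lmFit and eBayes, without a block and with Benjamini-Hochberg adjustment over all tested genes. "Blocked" values use the title number as a block. Deviations from the group means correlated at 0.635, 0.527 and 0.272 between samples of the same number and at -0.573 to 0.0843 otherwise. Same-numbered samples were therefore treated as pairs. Deviations cancel within a group, so the values between different numbers are not separate support for the pairing, which was weakest for number 3. Precision is limited by the small number of arrays. Without the block, p-values reflect the spread between samples of a group, which came from separate sorts, drawn by eBayes toward the spread of all genes. For Eomes, with a pooled SD of 0.053, the SE of 0.16 rests mainly on that of all genes. Blocked p-values reflect the spread left after differences between title numbers are removed, also drawn by eBayes toward that of all genes. In the blocked fits on raw intensity and without number 1, all members given a fold had the same SE (0.32 and 0.27). Those p-values therefore follow the size of the fold and not the spread of the member itself. The members, gene lists, background level and tests were chosen with earlier results of these data known. Genes named were the members, the genes of the sorting markers, list genes past the threshold in either fit or with the 6 smallest p, and the 5 genes most like Eomes and Tbx21; other markers were named after their values were seen. Alternatives were the value table, raw intensity, median centring, other filters and probe summaries, the block, and leaving out samples. The blocked fits on raw intensity and on median-centred arrays were added after the data were seen.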

Additional observations from a re-analysis of the deposited data

How the results depend on the processing

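Direction held for Eomes, Tbx21, Id2, Ets1, Nfil3 and Tox under every alternative run (20 each, 19 for Ets1), with log2 folds of -1.0 to -0.67, -1.14 to -0.78, -1.61 to -0.38, -1.48 to -0.48, 0.03 to 0.45 and -0.93 to -0.06. Without a single sample, Zeb2 and Prdm1 lay between -0.28 and 0.01, and -0.37 and 0.08. Zeb2 reversed without Kit- 2 (0.01) and in the blocked fit without number 2 (0.04) and Prdm1 without Kit- 1 (0.08). Runx3, below background on all arrays, was given no fold. The cause of these reversals was not tested.

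Eomes was the 1 member called by limma. That count was 0 on raw intensity, with median centring, with probes above background on 3 of 6 arrays, and without any single sample (0 to 0). It was 3 with the replicate block, with the block on the value table and with the block on raw intensity, 0 with the block on median-centred arrays, and 1 to 4 in blocked fits without a number. Where it was 0, 1 to 4 members had an unadjusted p under 0.05 in limma. Of all genes, 147 were called. The count was 0 on raw intensity and with median centring (363 and 673 at an unadjusted p under 0.05) and 263 with every kept probe tested (77 higher, 186 lower). With the block it was 968, and 821 on the value table, 652 on raw intensity (134 higher, 518 lower) and 22 on median-centred arrays (14 higher, 8 lower). Without a single sample it was 0 to 76 (0 without Kit+ 3, where 1303 had an unadjusted p under 0.05), and in blocked fits without number 1, 2 or 3 it was 894, 144 and 1231. Of the other transcription factors, none was called without the block, and 8, 5 and 6 with it on the normalized values, the value table and raw intensity, 0 with it on median-centred arrays (12 at an unadjusted p under 0.05), and 0 to 10 without a number. Of the genes lower without Eomes, Tbx21 or Zeb2, 3 were called. The count was 0 on raw intensity and with median centring, 5 with the block, 5 with the block on the value table and 6 on raw intensity, 2 with the block on median-centred arrays, 0 to 2 without a single sample (6 or 7 had an unadjusted p under 0.05 where it was 0), and 4 to 6 in blocked fits without a number. Signal over background limits Ets1, Zeb2, Prdm1 and Runx3.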
